A study of Homo sapiens with 12 samples.

Results

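The 10 genes described here encode secreted or membrane-bound growth factors of the EGF, FGF, VEGF and PDGF families: HBEGF, AREG, EREG, TGFA, NRG1, FGF2, FGF5, VEGFC, PDGFA and PDGFC. They were taken by gene symbol, and all 10 are among the 44659 genes of the count table. RNA-seq was performed on A375, an established human melanoma cell line with a mutated BRAF, in 2 experiments with 3 libraries per group. In the first, cells received for 24 h either the solvent DMSO or a combination of MAPK inhibitors (MAPKi), namely 500 nM vemurafenib, which targets BRAF, together with cobimetinib, which targets MEK, also at 500 nM. In the second, cells were kept for 24 h in medium without glutamine (Gln-depleted) or in CTRL medium with 2 mM glutamine. All 12 libraries come from this single cell line, no gene was modified, and no sample carries both treatments. The experiments belong to different sequencing batches, so DMSO and CTRL medium libraries were not tested against each other.

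EGF family ligands are made as membrane proteins, cut off by sheddases such as ADAM17, and bind the ERBB receptors, which activate the RAS-RAF-MEK-ERK (MAPK) cascade. FGF, VEGF and PDGF ligands bind receptor tyrosine kinases of their own that feed the same cascade. In melanoma cells with a mutated BRAF the cascade is active without a ligand, and genes of several growth factors and of feedback inhibitors are known targets of it. Glutamine shortage is known to activate the amino acid response through ATF4, which raises transcription of stress genes, VEGFA among them.

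The promoters of AREG and EREG are shown because these neighbouring genes on chromosome 4 were the ligands with the fewest reads in the control libraries, and because AREG had the largest fold change of the members after Gln depletion. EREG lies at chr4:74365145-74388749 and AREG at chr4:74445136-74455005 (GRCh38, both on the forward strand), with 56386 bases between them. The sequences are the 250 bases before the annotated start (RefSeq, GRCh38.p14), chr4:74444886-74445135 for AREG and chr4:74364895-74365144 for EREG, written from 5' to 3' on the forward strand. Capitals mark the cAMP response element TGACGTCA, the site of CREB and ATF factors, and the TATA box TATAAA.
AREG: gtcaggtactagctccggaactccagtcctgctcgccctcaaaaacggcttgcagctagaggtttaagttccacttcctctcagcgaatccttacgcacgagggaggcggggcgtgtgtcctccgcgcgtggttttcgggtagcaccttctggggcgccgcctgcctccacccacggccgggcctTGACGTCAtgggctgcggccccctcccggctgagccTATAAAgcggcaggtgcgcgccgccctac
EREG: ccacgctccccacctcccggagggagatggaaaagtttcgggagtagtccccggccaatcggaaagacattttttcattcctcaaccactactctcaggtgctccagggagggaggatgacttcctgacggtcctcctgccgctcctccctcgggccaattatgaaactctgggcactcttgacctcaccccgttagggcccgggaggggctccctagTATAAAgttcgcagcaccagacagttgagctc
In AREG the cAMP response element began 65 bases before the start and the TATA box 29 bases before it, while in EREG the only match was a TATA box 32 bases before the start. On either strand, TGACGTCA was found in 1.65% and TATAAA in 10.72% of the same window of 35116 promoters. Of the 8 members with an entry in the promoter table (all but NRG1 and PDGFC), AREG alone held TGACGTCA, and AREG, EREG and FGF5 (at a second annotated start) held TATAAA. No member held the AP-1 motif TGANTCA (6.57% of all promoters), the ETS motif CCGGAAG (8.52%) or the ATF4 composite motif TGATGNAA (3.14%). These are matches of letters in a short window and do not show binding.

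Between 31056296 and 40071368 reads were counted per library, so the spread between replicates limits precision except for AREG, EREG, FGF5, NRG1 and VEGFC in the libraries where they had few reads. The melanocyte lineage markers SOX10, MITF, PMEL, DCT and S100B were detected in every library, whereas MLANA and TYR had as few as 2 and 11 reads. The 8 markers summed to between 8686.5 and 11000.5 CPM (reads scaled to the TMM-scaled library size) with MAPKi, 1308.5 and 1401.0 with DMSO, 649.2 and 738.5 after Gln depletion, and 1021.8 and 1238.3 in CTRL medium. With MAPKi the sum was carried by DCT (7770.1 CPM, against 197.9 with DMSO). The other 7 summed to means of 1794.5 and 1169.0 CPM, and S100B fell from 171.1 to 39.5 CPM (log2 fold change -2.13, adjusted p = 1.4e-08). After Gln depletion 7 lineage markers were tested, all but MLANA, and MITF was the only one called in the unpaired fit. With the replicate number as a block, DCT and S100B were also lower (adjusted p = 0.00599 and 0.0424). MITF fell from 301.4 CPM in CTRL medium to 58.7 (log2 fold change -2.33, adjusted p = 0.00377), whereas it rose with MAPKi (0.78, adjusted p = 6.9e-07). The 9 markers of other cell types summed to between 6.84 and 27.0 CPM, with CD3E and KRT5 at 0 reads in all libraries. Most of this sum came from LUM (80 to 753 reads) and VWF (85 to 319 reads), which were counted in every library. LUM fell after Gln depletion (log2 fold change -2.21, adjusted p = 0.00616) and with MAPKi (-0.69, adjusted p = 0.00123). VWF rose with MAPKi (0.87, adjusted p = 7.8e-05) and was not called after Gln depletion. The part of the lineage markers in the results below was not tested. Sample labels describe RNA of a cytoplasmic fraction, whereas the study's methods describe total RNA. Whether replicates are separate cultures is not stated, so p-values measure only the spread between these libraries, which may be technical.

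Which ligands changed when the MAPK cascade was inhibited was asked first. TGFA, NRG1 and FGF2 were downregulated, PDGFA fell without passing the fold threshold, FGF5 was upregulated, and HBEGF, VEGFC and PDGFC were not called. Upregulated and downregulated mean a change of more than 1.5-fold at an adjusted p of at most 0.05 (edgeR's quasi-likelihood fit, Benjamini-Hochberg adjustment over all genes tested), and higher or lower mean a change from 0 at the same adjusted p. Printed adjusted p-values are those against no change, also for upregulated and downregulated genes, unless the fold threshold is named with the value or just before it. Of the 10 members, 8 passed the limit of a mean normalized count of 10, and 3 of these were downregulated and 1 was upregulated. Among the 15975 genes tested, 17.6% were downregulated and 16.1% upregulated. Against no change, 4 members were lower and 1 was higher, beside 35.9% and 35.8% of all genes tested.

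When glutamine was withdrawn, the second question, AREG, NRG1 and PDGFA were upregulated, TGFA and PDGFC rose without passing the fold threshold, and HBEGF, FGF2, FGF5 and VEGFC were not called. Of the 10 members, 9 were tested, 3 were upregulated and 0 were downregulated, beside 3.21% and 1.65% of the 15900 genes tested. Against no change, 5 were higher and 0 lower, beside 8.84% and 6.96% of all genes. AREG is among the upregulated and the higher members, but reached the count limit only through its Gln-depleted libraries. DESeq2 also called 0 members downregulated and 0 lower. In the edgeR fit 1 member, FGF5, was lower at an unadjusted p under 0.05, but reached the count limit only through its CTRL medium libraries. Libraries of the same replicate number deviated together in this experiment, and replicate 1 is experimental batch 1 and replicates 2 and 3 are batch 2. With the replicate number as a block, 8.41% of all genes were upregulated, 22.7% higher and 19.8% lower. PDGFC then became upregulated, FGF2 higher and FGF5 lower. With the experimental batch as a term instead, and in batch 2 alone, FGF2 was also higher, but PDGFC was not upregulated and FGF5 was not called.

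**Figure D1:**
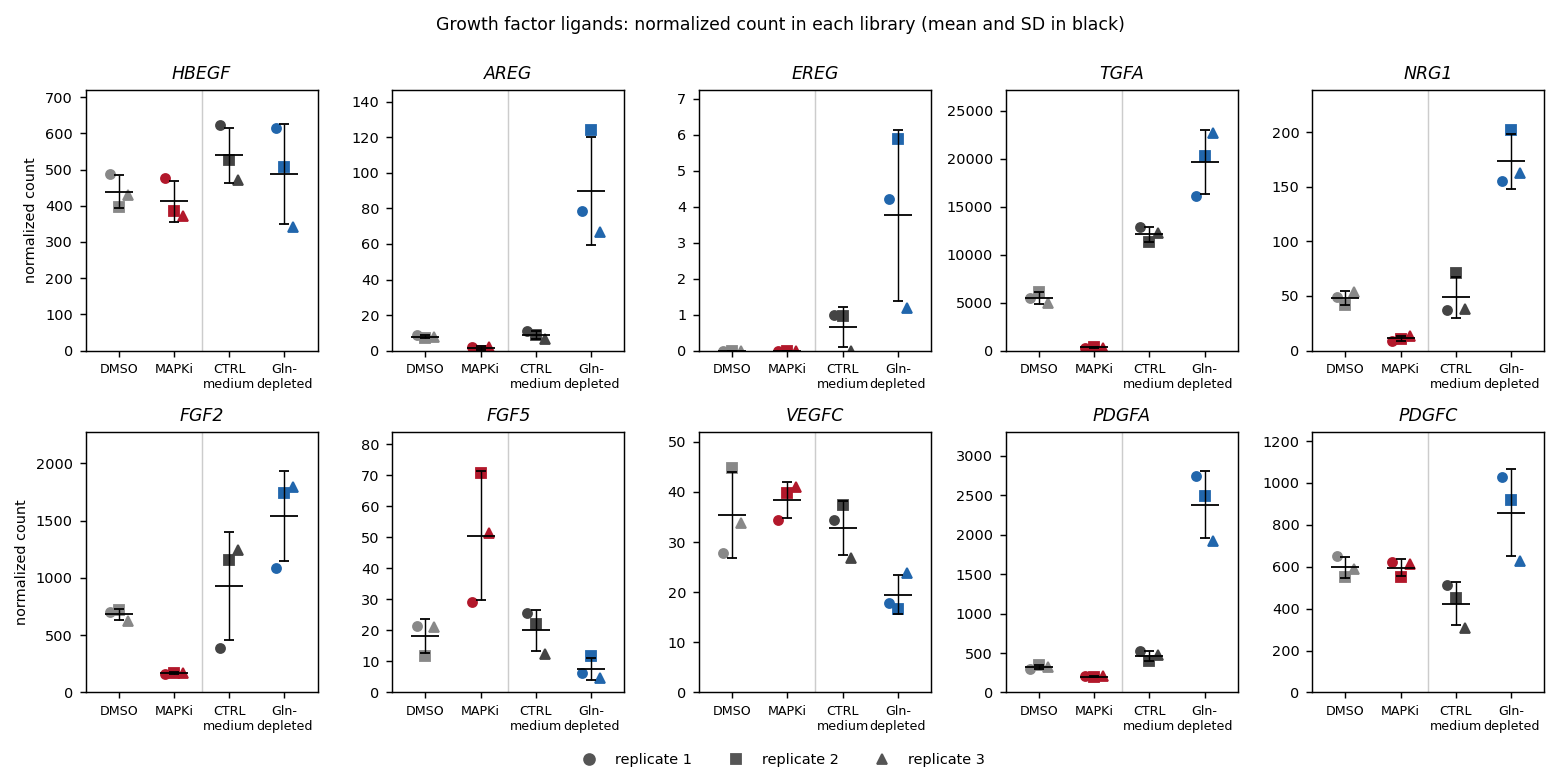
Normalized count (y axis, linear from 0, a separate scale in each panel) of each of the 10 ligands in every library of the 4 groups (x axis), with symbols for the replicate and black bars for the mean and SD of 3 libraries. TGFA lay between 4917.9 and 6128.7 with DMSO and between 291.7 and 365.7 with MAPKi, and PDGFA between 403.1 and 529.7 in CTRL medium and between 1912.3 and 2737.6 after Gln depletion.

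TGFA (chr2:70447284-70554193) encodes TGF-alpha, a ligand of EGFR. Its normalized counts were 5435.7, 6128.7 and 4917.9 with DMSO and 291.7, 365.7 and 311.0 with MAPKi. Every MAPKi library was far below every DMSO library. The log2 fold change was -4.09 (SE 0.11, adjusted p = 1.5e-08), 17.1 times lower. In bulk RNA, a lower level in every cell and fewer cells with the transcript cannot be told apart. In CTRL medium TGFA had 12849.3, 11307.9 and 12251.9 normalized counts, and after Gln depletion 16078.6, 20261.0 and 22656.1. All Gln-depleted libraries were above all CTRL medium libraries, with the difference smallest in replicate 1 (0.32 on the log2 scale, against 0.84 and 0.89 in replicates 2 and 3). The log2 fold change was 0.70 (SE 0.19, adjusted p = 0.0447), and 0.68 with the replicate block (adjusted p = 0.00823). The call without the block was lost when Gln-depleted replicate 2 or 3 or CTRL medium replicate 1, 2 or 3 was left out (log2 fold changes of 0.67, 0.56, 0.74, 0.65 and 0.70, adjusted p = 0.142, 0.136, 0.0631, 0.147 and 0.127), and with genes of at least 2 reads (adjusted p = 0.0637).

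NRG1 encodes neuregulin 1, a ligand of ERBB3 and ERBB4. With DMSO its normalized counts were 49.1, 41.8 and 54.0, and with MAPKi 9.09, 11.0 and 13.3. The groups did not overlap, and NRG1 fell 4.28-fold (log2 fold change -2.10, SE 0.25, adjusted p = 7.7e-05). In CTRL medium the values were 37.3, 70.7 and 38.4, and after Gln depletion 155.5, 202.3 and 162.2. The lowest Gln-depleted library was above the highest CTRL medium library, and NRG1 rose 3.55-fold (log2 fold change 1.83, SE 0.35, adjusted p = 0.0148). It passed the fold threshold with an adjusted p = 0.0437, and not in batch 2 alone (log2 fold change 1.74, adjusted p = 0.0618). That call was also lost when Gln-depleted replicate 2 or 3 or CTRL medium replicate 1, 2 or 3 was left out (log2 fold changes of 1.70, 1.84, 1.67, 2.19 and 1.68, adjusted p = 0.161, 0.11, 0.0981, 0.0506 and 0.145). Against no change it was lost without Gln-depleted replicate 2 or CTRL medium replicate 3 (adjusted p = 0.064 and 0.0611). With the replicate block the log2 fold change was 1.88 (adjusted p = 0.00182, and 0.00664 against the fold threshold). The annotated exons of NRG1 share 189 bases with another gene that is not in the count table.

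AREG encodes amphiregulin, an EGFR ligand of lower affinity. It had 11, 9 and 7 reads in CTRL medium and 75, 127 and 56 after Gln depletion, or normalized counts of 10.8, 8.6 and 6.25 and of 78.8, 124.1 and 66.8. Each Gln-depleted library was well above the CTRL medium range. AREG rose 10.43-fold (log2 fold change 3.38, SE 0.43, adjusted p = 0.00352), the largest fold among the 9 members tested in this experiment, on a low level. Its mean was 8.54 in CTRL medium, so it reached the limit of 10 only through the Gln-depleted libraries (mean 89.9). A gene selected in this way can only be called higher. In the MAPKi experiment the gene was under the limit, with 8, 7 and 8 reads with DMSO and 2, 0 and 2 with MAPKi. These 4 against 23 reads gave a ratio of 0.171, with a 95% interval from 0.0431 to 0.502 that covers counting error only. In a fit that kept genes of at least 2 reads its log2 fold change was -2.45 (SE 0.71, adjusted p = 0.0145).

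EREG encodes epiregulin, which binds EGFR and ERBB4, and its reads were too few for a test in either experiment. None were counted in the 6 libraries of the MAPKi experiment. A count of 0 in 1 library alone allows an expected count of up to 3, and the limit is lower over the 6 libraries together. After Gln depletion it had 4, 6 and 1 reads, against 1, 1 and 0 in CTRL medium. These 11 against 2 reads gave a ratio of 6.23, with a counting interval from 1.36 to 57.8, and the Gln-depleted values lay just above the CTRL medium values. In the fit of genes with at least 2 reads, the log2 fold change was 2.38 (SE 1.15) with an adjusted p = 0.226.

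HBEGF (chr5:140332843-140346603, reverse strand) encodes a heparin-binding ligand of EGFR and ERBB4. Its normalized counts were 488.0, 397.8 and 429.2 with DMSO and 477.5, 386.7 and 371.4 with MAPKi. They were 621.9, 526.4 and 471.2 in CTRL medium and 614.5, 507.3 and 341.2 after Gln depletion. The groups overlapped in both experiments. The log2 fold change was -0.09 with MAPKi (95% confidence interval from -0.37 to 0.19, adjusted p = 0.523) and -0.15 after Gln depletion (from -0.75 to 0.46, adjusted p = 0.733). A change within these limits is not excluded, and the missed threshold does not show that the levels were equal. Of the 5 EGF family members, 3 were tested with MAPKi (2 downregulated, median log2 fold change -2.10) and 4 after Gln depletion (2 upregulated, median 1.26). The median of all genes tested was -0.001 and 0.017, and 17.6% of them were downregulated with MAPKi and 3.21% upregulated after Gln depletion. AREG is among the 4 tested and the 2 upregulated after Gln depletion, but reached the count limit only through its Gln-depleted libraries. The median of 1.26 therefore includes a gene that could only be called higher, and the MAPKi median does not include it.

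FGF2 (chr4:122826682-122898236) encodes basic FGF, which leaves cells without a signal peptide. It had 702.7, 719.0 and 626.9 normalized counts with DMSO and 163.5, 173.4 and 171.5 with MAPKi. The groups were clearly apart, and FGF2 fell 4.03-fold (log2 fold change -2.01, SE 0.09, adjusted p = 1.5e-07). In CTRL medium the values were 384.5, 1158.8 and 1243.1, and after Gln depletion 1084.1, 1741.0 and 1790.6. CTRL medium replicate 1 was far below the other two, and the groups overlapped, so the unpaired test did not call FGF2 (log2 fold change 0.73, SE 0.42, adjusted p = 0.265). Within each replicate number the Gln-depleted library was higher, by 1.49 on the log2 scale in experimental batch 1 and by 0.59 and 0.53 in batch 2. With the replicate block FGF2 rose by 0.86 (SE 0.20, adjusted p = 0.0145), and in batch 2 alone by 0.56 (adjusted p = 0.0299). The exons of FGF2 share 804 bases with NUDT6 on the opposite strand, and the strand setting of the counting is not given in the sources used here, so reads there cannot be told apart. NUDT6 itself had a log2 fold change of -1.11 (adjusted p = 4.5e-05) with MAPKi and -1.19 (adjusted p = 0.0226) after Gln depletion, the latter not called without Gln-depleted replicate 2 or 3 or CTRL medium replicate 2 or 3 (-1.18, -1.23, -1.18 and -1.25, adjusted p from 0.06 to 0.0894).

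FGF5 (chr4:80266639-80336680), known as a regulator of the hair cycle, was the only member upregulated with MAPKi. Its normalized counts were 21.4, 11.9 and 21.2 with DMSO and 29.3, 70.7 and 51.5 with MAPKi. The groups did not overlap, but MAPKi replicate 1 was close to the DMSO range. The log2 fold change was 1.47 (SE 0.37, adjusted p = 0.00705, and 0.0349 against the fold threshold). It was higher against no change whichever library was left out, but was no longer past the fold threshold without MAPKi replicate 2 or 3 or DMSO replicate 1, 2 or 3 (adjusted p = 0.111, 0.0754, 0.0511, 0.104 and 0.0584, log2 fold changes of 1.15, 1.45, 1.61, 1.25 and 1.62), nor with DESeq2 (adjusted p = 0.17). In CTRL medium FGF5 had 25.5, 22.0 and 12.5 normalized counts, and after Gln depletion 6.3, 11.7 and 4.77. The Gln-depleted libraries lay just under the CTRL medium range, with a log2 fold change of -1.36 (SE 0.51, adjusted p = 0.104). With the replicate block it fell by 1.39 on the log2 scale (adjusted p = 0.0439), but it was not called with the experimental batch as a term (-1.34, adjusted p = 0.0756) or in batch 2 alone (-1.02, adjusted p = 0.266). Its exons share 136 bases with CFAP299, which had at most 3 reads in any library.

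PDGFA (chr7:497258-520296, reverse strand) encodes the A chain of PDGF, a ligand of PDGFRA. In CTRL medium it had 529.7, 403.1 and 471.2 normalized counts, and after Gln depletion 2737.6, 2485.8 and 1912.3. Every Gln-depleted library was several-fold above the highest CTRL medium library. PDGFA rose 5.08-fold (log2 fold change 2.35, SE 0.22, adjusted p = 0.00178). With DMSO the values were 293.7, 354.0 and 317.3, and with MAPKi 202.9, 191.1 and 211.5. The groups were apart by a smaller step, and PDGFA fell 1.59-fold (log2 fold change -0.67, SE 0.10, adjusted p = 4.0e-04), short of the fold threshold (adjusted p = 0.194).

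PDGFC (chr4:156760454-156971799, reverse strand) encodes a latent PDGF that needs to be cut by a protease, PLAT among them. It had 650.4, 550.9 and 589.3 normalized counts with DMSO and 623.8, 551.3 and 614.0 with MAPKi. The ranges nearly coincided, and the 95% confidence interval of the log2 fold change ran from -0.19 to 0.19 (adjusted p = 0.998). In CTRL medium the values were 512.0, 449.0 and 309.7, and after Gln depletion 1028.4, 920.8 and 625.1. Within each replicate number the Gln-depleted library was higher by nearly the same step, 1.00, 1.03 and 1.01 on the log2 scale. PDGFC rose 2.03-fold (log2 fold change 1.02, SE 0.28, adjusted p = 0.0432), and with the replicate block it was also upregulated past the fold threshold (adjusted p = 0.0198), but not with the experimental batch as a term (adjusted p = 0.0698) or in batch 2 alone (adjusted p = 0.174). Without the block, the call against no change was lost when Gln-depleted replicate 1, 2 or 3 or CTRL medium replicate 2 or 3 was left out (log2 fold changes of 0.87, 0.97, 1.17, 1.06 and 0.84, adjusted p = 0.0754, 0.136, 0.0517, 0.111 and 0.131).

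VEGFC (chr4:176683538-176792922, reverse strand), the lymphatic growth factor that binds FLT4, was low in all groups. Its normalized counts were 27.8, 44.7 and 33.8 with DMSO and 34.3, 39.8 and 40.9 with MAPKi. They were 34.3, 37.3 and 26.8 in CTRL medium and 17.9, 16.6 and 23.9 after Gln depletion. The groups overlapped in the MAPKi experiment, where the log2 fold change was 0.11 (95% confidence interval from -0.42 to 0.65, adjusted p = 0.683). The Gln-depleted libraries were under the CTRL medium range, but the log2 fold change of -0.75 (from -1.58 to 0.08) was not called (adjusted p = 0.184, and 0.141 with the replicate block).

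**Figure D2:**
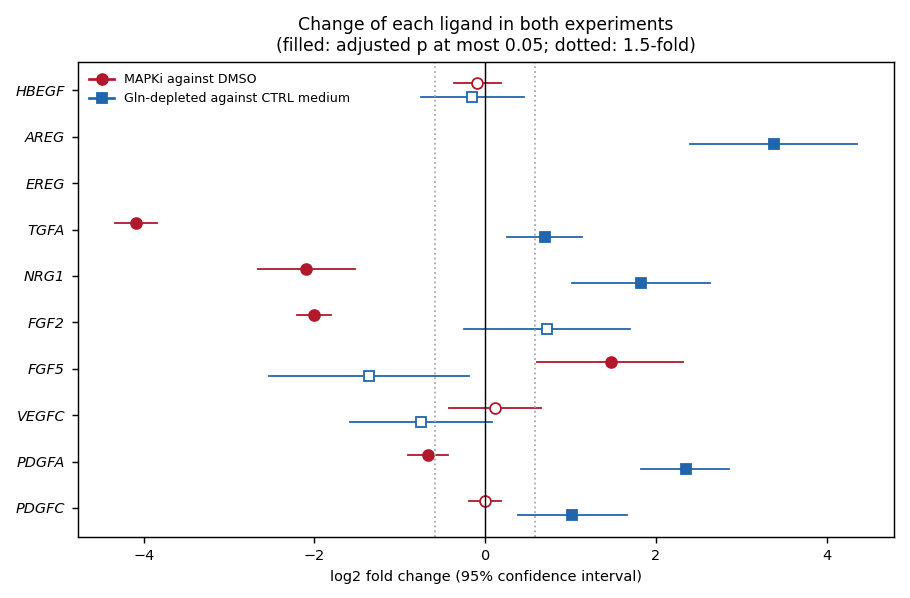
Log2 fold change with its 95% confidence interval (x axis) of each ligand (y axis) in the MAPKi experiment (red circles) and the Gln depletion experiment (blue squares), filled where the adjusted p was at most 0.05, with dotted lines at the fold threshold of 1.5. TGFA was at -4.09 and 0.70 and NRG1 at -2.10 and 1.83; EREG was not tested in either experiment and AREG not in the MAPKi experiment.

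Whether a member responded differently to the 2 treatments was tested as the MAPKi effect minus the Gln depletion effect over the 12 libraries, whose controls are separate. Of 9 members tested, 7 differed, beside 36.1% of the 16072 genes tested. The difference was -4.73 for TGFA (SE 0.22, adjusted p = 9.0e-08), -3.88 for NRG1 (SE 0.42, adjusted p = 3.7e-05) and -2.97 for PDGFA (SE 0.22, adjusted p = 3.0e-06). Each of these fell with MAPKi and rose after Gln depletion. FGF2 differed by -2.69 (SE 0.49, adjusted p = 0.00124) and PDGFC by -0.97 (SE 0.30, adjusted p = 0.0256), which was no longer called without MAPKi replicate 2, DMSO replicate 1 or 3 or Gln-depleted replicate 2 (-0.92, -0.90, -0.97 and -0.93, adjusted p = 0.061, 0.0615, 0.0501 and 0.0517). AREG differed by -5.78 (SE 0.72, adjusted p = 9.6e-05), a fitted value that rests on at most 2 reads in each MAPKi library. AREG also reached the count limit only through the Gln-depleted libraries. FGF5 differed in the other direction, by 2.88 (SE 0.65, adjusted p = 0.00482). For HBEGF the difference was 0.11 (95% confidence interval from -0.54 to 0.75, adjusted p = 0.812) and for VEGFC 0.92 (from 0.07 to 1.76, adjusted p = 0.0844), neither of which was called. The experiments also differ in sequencing batch, which cannot be told apart from the treatment pair.

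**Figure D3:**
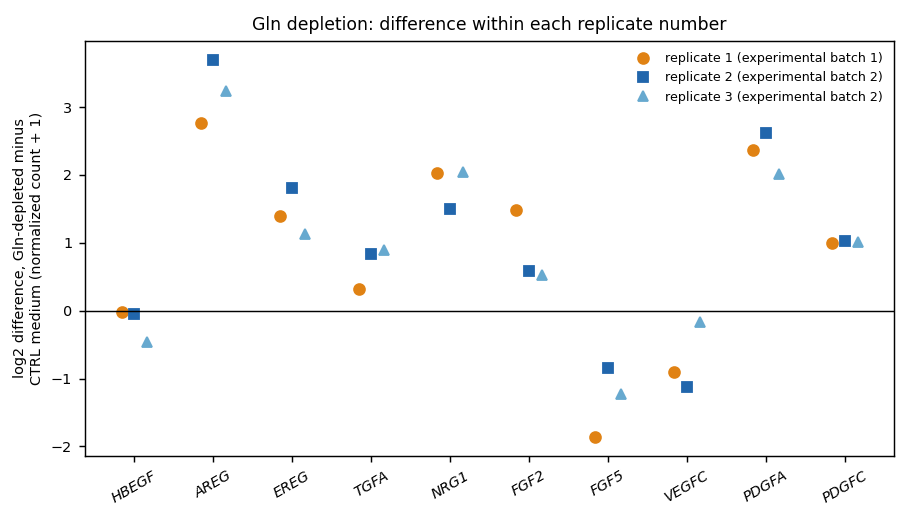
Difference on the log2 scale between the Gln-depleted and the CTRL medium library of the same replicate number (y axis, from normalized count + 1) for each ligand (x axis), with replicate 1 from experimental batch 1 and replicates 2 and 3 from batch 2. FGF2 was at 1.49 in batch 1 and at 0.59 and 0.53 in batch 2, and PDGFC at 1.00, 1.03 and 1.01.

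Levels were compared between genes as RPKM, the reads per kilobase of exon scaled to the TMM-scaled library size. With DMSO, TGFA had the highest level (31.4 ± 3.19 RPKM, SD, n = 3), followed by HBEGF (4.13 ± 0.454), FGF2 (2.83 ± 0.184), PDGFC (2.80 ± 0.252) and PDGFA (1.97 ± 0.172), of which FGF2 and PDGFC overlapped. VEGFC (0.381), AREG (0.133), FGF5 (0.086) and NRG1 (0.0637) were all under 1 RPKM, FGF5 and NRG1 with overlapping ranges, and EREG was at 0. The level of TGFA was 7.61 times that of HBEGF. In CTRL medium the same gene was on top (69.7 ± 4.87 RPKM), 13.7 times above HBEGF (5.10 ± 0.785), whose range overlapped that of FGF2 (3.84 ± 1.93).

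With MAPKi the order changed: TGFA (1.87 ± 0.238 RPKM) was in the third place, under HBEGF (3.91 ± 0.52) and PDGFC (2.82 ± 0.165), with ranges that did not overlap. PDGFA (1.25 ± 0.0569), FGF2 (0.708 ± 0.0273), VEGFC (0.416 ± 0.0404) and FGF5 (0.241 ± 0.101) followed. After Gln depletion TGFA had 109.9 ± 18.4 RPKM, PDGFA stood second (14.3 ± 2.55), and FGF2 (6.21 ± 1.58), HBEGF (4.48 ± 1.27) and PDGFC (3.93 ± 0.961) followed, with neighbours that overlapped. AREG reached 1.5 ± 0.499 RPKM, which placed it above NRG1 (0.223 ± 0.0315) and VEGFC (0.204 ± 0.041), and those overlapped. The exon length is that of all annotated isoforms together, which is 21372 bases for NRG1 and 2990 for HBEGF, so the level of a gene with long alternative exons is understated. By coding length FGF2 came second with DMSO and in CTRL medium, and TGFA second with MAPKi (18.4 ± 2.35 RPKM), between HBEGF (18.7 ± 2.49) and PDGFC (16.4 ± 0.953), with ranges that overlapped both.

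**Figure D4:**
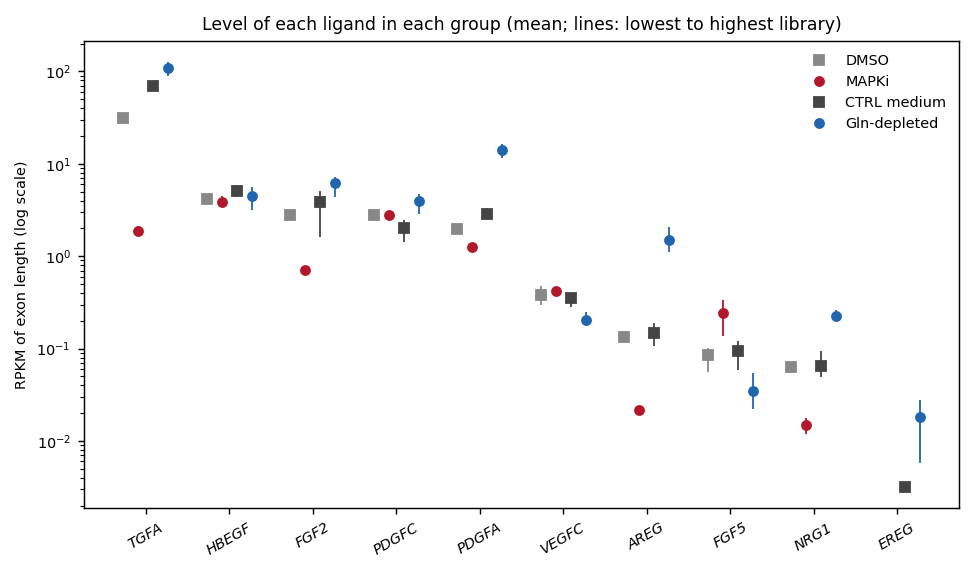
Level of each ligand in RPKM of exon length (y axis, log scale) in the 4 groups, ordered by the level with DMSO (x axis), with points for the mean of 3 libraries and lines from the lowest to the highest library. TGFA drops from 31.4 with DMSO to 1.87 with MAPKi; means of 0 (EREG with DMSO and MAPKi) and ranges that reach 0 are not drawn.

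The genes whose pattern over the 12 libraries was most like that of each member were found by Pearson's r of log2(normalized count + 1) after centring each experiment on its mean. The libraries share treatments, sequencing batches and scaling, so r describes these libraries only. TGFA was closest to NPAS2 (r = 0.995) and CYTOR (0.994), and FGF2 to PSMC3IP and MTMR12 (0.987 each). AREG was closest to JAG1 (0.966) and STC2 (0.965), NRG1 to MTHFD2 (0.977) and PMAIP1 (0.976), and PDGFA to TXNRD1 (0.985) and OSGIN1 (0.984). PDGFC was closest to TMC7 (0.975) and TGOLN2 (0.964). For HBEGF (ALG8 0.900, CHD8 0.884), FGF5 (ATP6V1A 0.902, SAMHD1 0.898) and VEGFC (VXN 0.874, LOC105370960 0.868) the closest genes were less alike. Of the 10 members, 6 lie on chromosome 4, and EREG and AREG are neighbours.

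Of the other ligands of these families, several moved strongly. Among all genes tested, 16.1% were upregulated and 17.6% downregulated with MAPKi, and 3.21% and 1.65% after Gln depletion. VEGFA, the main angiogenic ligand, rose from 1625.5 to 17357.2 normalized counts after Gln depletion (log2 fold change 3.42, SE 0.20, adjusted p = 8.3e-04) and from 880.7 to 1845.0 with MAPKi (1.07, SE 0.05, adjusted p = 3.8e-07). PGF, another VEGF family member, fell by 1.63 on the log2 scale with MAPKi (adjusted p = 6.4e-07). Of the 6 other VEGF and PDGF ligands, 4 were tested with MAPKi (1 upregulated, 1 downregulated, median 0.43) and 5 after Gln depletion (2 upregulated, median -0.47). The other gene upregulated after Gln depletion was PDGFB (log2 fold change 3.86, adjusted p = 0.00234). VEGFB was lower (-1.02, adjusted p = 0.0488), and downregulated with the replicate block (-1.09, adjusted p = 0.0286 against the fold threshold). Against no change, VEGFB was not called in batch 2 alone (-0.85, adjusted p = 0.0672). Nor was it without Gln-depleted replicate 1 or 2 or CTRL medium replicate 1, 2 or 3 (adjusted p from 0.074 to 0.168). Of the 6 other EGF family ligands, 5 were tested, and with MAPKi 2 were upregulated, NRG3 (0.78, adjusted p = 3.6e-05) and BTC (2.39, adjusted p = 2.6e-05). Against the fold threshold their adjusted p was 0.0192 and 9.9e-05. After Gln depletion only BTC of these was upregulated (2.61, adjusted p = 0.00381), while NRG3 (-1.48) was lower (adjusted p = 0.0449), which was lost without Gln-depleted replicate 1 or 2 or CTRL medium replicate 2 or 3 (-1.23, -1.36, -1.41 and -1.25, adjusted p from 0.0718 to 0.151). With the replicate block NRG3 was downregulated (adjusted p = 0.0063 against the fold threshold). The MAPKi rise of NRG3 did not pass the fold threshold without MAPKi replicate 1 or DMSO replicate 2 (0.72 and 0.70, adjusted p = 0.0602 and 0.0551) or with DESeq2 (adjusted p = 0.166). Of the 20 other FGF ligands, 9 had no read in the MAPKi experiment and 5 were tested there, with FGF1 (1.42, adjusted p = 1.9e-05) and FGF7 (2.60, adjusted p = 2.9e-04) upregulated and FGF13, an FGF that is not secreted, downregulated (-2.74, adjusted p = 1.3e-08). Of the 4 tested after Gln depletion, 0 were past the fold threshold by edgeR or DESeq2, but FGF14 (2.32, adjusted p = 0.0251) was higher, the only one at an unadjusted p under 0.05. It was upregulated with the block (adjusted p = 0.0138 against the fold threshold). Against no change it was not called without Gln-depleted replicate 2 or CTRL medium replicate 1, 2 or 3 (1.67, 2.09, 2.51 and 2.40, adjusted p from 0.0599 to 0.0853). BTC, FGF7, FGF14, PDGFB and VEGFB were named after their values were seen. FGF7 (mean 3.66 with DMSO) and PDGFB (mean 7.22 in CTRL medium) reached the count limit only through the treated libraries.

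Among the receptors, 13 of 15 were tested in each experiment. With MAPKi 2 were upregulated, the NRG1 receptor ERBB3 (from 17672.4 to 37950.6 normalized counts, log2 fold change 1.10, adjusted p = 8.7e-06) and the PDGF receptor PDGFRB (1.86, adjusted p = 2.5e-06). EGFR, the receptor of TGFA, AREG and HBEGF, was downregulated (from 246.7 to 89.9, -1.46, adjusted p = 1.6e-05), as were the VEGF receptors FLT1 (-2.30, adjusted p = 1.8e-05) and KDR (-4.54, adjusted p = 6.5e-06, named after its value was seen). KDR reached the count limit only through the DMSO libraries (mean 135.8, against 5.89 with MAPKi), so it could only be called lower. The median over the 13 was -0.22. Of all genes tested with MAPKi, 16.1% were upregulated and 17.6% downregulated. After Gln depletion NRP1, a coreceptor of VEGF ligands, rose from 954.1 to 21804.8 normalized counts (log2 fold change 4.51, SE 0.45, adjusted p = 0.00196), with an SD of 11054.0 between the Gln-depleted libraries. PDGFRA, the receptor of PDGFA and PDGFC, was higher (from 165.1 to 415.4, log2 fold change 1.33, adjusted p = 0.0109) and narrowly upregulated past the fold threshold (adjusted p = 0.0465). That call was lost with DESeq2 (adjusted p = 0.0928) and without any 1 of the 6 libraries (log2 fold changes from 1.20 to 1.41, adjusted p from 0.0718 to 0.152). The call of PDGFRA against no change was lost without CTRL medium replicate 2 or 3 (1.34 and 1.28, adjusted p = 0.0504 and 0.0514). The median was 0.50. Of all genes tested after Gln depletion, 3.21% were upregulated and 1.65% downregulated, and 8.84% were higher and 6.96% lower. DESeq2 called 1 receptor upregulated, NRP1. By edgeR and by DESeq2 0 were downregulated past the fold threshold. Against no change, 2 receptors were lower, FGFR4 (-0.78, adjusted p = 0.0471) and KDR (-1.34, adjusted p = 0.0475), and 3 at an unadjusted p under 0.05. FGFR4 was not called without any 1 of the 6 libraries (adjusted p from 0.0646 to 0.141), nor KDR without any 1 of the libraries other than Gln-depleted replicate 1 (adjusted p from 0.0837 to 0.14). With the replicate block FLT1 was also upregulated (1.20, adjusted p = 0.0219 against the fold threshold). FGFR4 and KDR, and FLT1 after Gln depletion, were named after their values were seen.

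Of 14 genes that release or activate ligands, 13 were tested in each experiment. With MAPKi 3 were upregulated and 3 downregulated, beside 16.1% and 17.6% of all genes tested, with a median of 0.13. PLAT, the protease that activates PDGFC, fell from 7905.5 to 289.5 normalized counts (log2 fold change -4.77, SE 0.06, adjusted p = 8.1e-10), and ADAM19 fell by 2.64 on the log2 scale (adjusted p = 3.5e-07). PCSK6 (1.21, adjusted p = 1.4e-06) and RHBDF1 (0.80, adjusted p = 2.0e-05, and 0.00982 against the fold threshold), which acts on the maturation of ADAM17, rose. After Gln depletion 0 were called past the fold threshold in the unpaired edgeR fit or by DESeq2. Of all genes tested by edgeR, 3.21% were upregulated and 1.65% downregulated. In the unpaired edgeR fit 1 was higher and 3 were lower at an unadjusted p under 0.05. With the replicate block 1 was called past the fold threshold, ADAMTS3 (-1.34, adjusted p = 0.0127, named after its value was seen). ADAMTS3 was the only one lower against no change without the block (-1.32, adjusted p = 0.0291), which was lost without Gln-depleted replicate 3 or CTRL medium replicate 1, 2 or 3 (-1.25, -1.34, -1.11 and -1.47, adjusted p from 0.05 to 0.103). The median was -0.29.

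Of 11 ligand binding proteins, 10 were tested in each experiment. Among all genes tested, 16.1% were upregulated and 17.6% downregulated with MAPKi, and 3.21% and 1.65% after Gln depletion. FGFRL1, an FGF receptor without a kinase domain, was downregulated with MAPKi (-3.31, adjusted p = 1.2e-08) and upregulated after Gln depletion (1.45, adjusted p = 0.00341). SDC1, a heparan sulfate proteoglycan, was downregulated in both (-2.18, adjusted p = 6.1e-08, and -2.69, adjusted p = 0.00822). After Gln depletion FGFRL1 did not pass the fold threshold without CTRL medium replicate 2 or 3 (1.37 and 1.48, adjusted p = 0.0733 and 0.0585), nor SDC1 without Gln-depleted replicate 3 or CTRL medium replicate 2 or 3 (-2.56, -2.76 and -2.70, adjusted p = 0.0636, 0.0525 and 0.0526), and both kept their call against no change in these fits. With MAPKi, 2 were upregulated, GPC1 (1.07, adjusted p = 1.8e-06) and GPC6 (0.81, adjusted p = 2.5e-05, and 0.00884 against the fold threshold), and 4 were downregulated, with a median of 0.16. After Gln depletion 1 was upregulated and 1 downregulated, against 2 and 2 with the replicate block, which added SDC4 (1.23, adjusted p = 0.0138 against the fold threshold) and FGFBP3 (-1.69, adjusted p = 0.0189 against the fold threshold), named after their values were seen. The median was -0.25. Among the 8 receptor inhibitors, all tested, 1 was downregulated with MAPKi (median 0.06) and 1 upregulated after Gln depletion (median 0.43), and both times it was ERRFI1, an inhibitor of EGFR (-1.15, adjusted p = 2.2e-07, and 2.92, adjusted p = 0.00255).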

How the data were processed

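Counts of 12 libraries were analysed. Per the labels and the methods, the authors depleted ribosomal RNA, trimmed reads with fastp 0.20.1, aligned them to GRCh38.p13 with HISAT2 2.2.1 and counted reads on exons with htseq-count 0.13.5. The deposited values are raw counts, not normalized. Whether strand was used is not given in the sources used here.

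Counts were fitted in R 4.3.3 with edgeR 4.0.16 (TMM scaling, quasi-likelihood), each experiment alone, on every gene whose mean normalized count reached 10. Changes of more than 1.5-fold were tested with glmTreat and changes from 0 with glmQLFTest, at an adjusted p of at most 0.05. Normalized counts are counts divided by the TMM-scaled library size, on the scale of the mean library of the experiment. CPM and RPKM values used the TMM-scaled library sizes of all 12 libraries together, and RPKM values used GENCODE exon lengths for GRCh38. Tables and figures were made with Python 3.11.15, numpy 2.4.6, pandas 2.3.3, scipy 1.17.1 and matplotlib 3.10.9. DESeq2 1.42.0 was an alternative, as were its size factors, other count limits (2 reads, or a mean of 100), protein-coding genes alone, a fit of all 12 libraries, the replicate block, the experimental batch, coding length, and each library left out. The fits were tested on simulated data.

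The members and lists were chosen with earlier results of these data known. Named besides the members were, from each list and experiment, at most 2 up- and 2 downregulated genes of the largest fold whose mean normalized count reached 100, the 2 genes of the most similar pattern to each member, and genes whose exons overlap a member. Same-numbered libraries of the Gln depletion experiment deviated together (correlations across genes of 0.487, 0.341 and 0.386, against at most 0.0331 for different numbers), and the labels put replicate 1 in an experimental batch of its own, so the numbers were taken to pair these libraries. Replicates differed by more than sampling noise.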

Additional observations from a re-analysis of the deposited data

Results flagged for a closer look

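The MAPKi effect and the Gln depletion effect differed, by the test of the difference over the 12 libraries, for 7 of the 9 members tested (edgeR, adjusted p of at most 0.05). Of all 16072 genes tested, 36.1% differed. AREG was tested only because its Gln-depleted libraries lifted it over the count limit. On the log2 scale, the MAPKi effect minus the Gln depletion effect was -5.78 for AREG, -4.73 for TGFA, -3.88 for NRG1, -2.97 for PDGFA, -2.69 for FGF2, -0.97 for PDGFC and 2.88 for FGF5. TGFA, NRG1 and PDGFA were lower in 3 of 3 MAPKi libraries than in any DMSO library and higher in 3 of 3 Gln-depleted libraries than in any CTRL medium library. FGF5 was higher in 3 of 3 MAPKi libraries and lower in 3 of 3 Gln-depleted libraries in the same way. Its fall after Gln depletion was not called (adjusted p = 0.104). The share of all genes with libraries apart in this way was not counted. The sequencing batch differs between the experiments and cannot be told apart from the treatment pair.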

How the results depend on the processing

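TGFA, NRG1, FGF2 and PDGFA with MAPKi, and AREG and PDGFA after Gln depletion, kept their direction and their call against no change under every alternative in which they were tested. With MAPKi, 0 members were upregulated with DESeq2, in a fit of all 12 libraries and with a mean count of at least 100, and 0 were higher with that last limit, which leaves out FGF5 and so tests fewer genes. After Gln depletion, the fit of all 12 libraries, the replicate block, the experimental batch as a term and batch 2 alone gave 1079, 1337, 1226 and 803 upregulated and 1032, 1006, 905 and 617 downregulated genes, against 510 and 262. Of the members, 2 (FGF5 and VEGFC) were lower in the fit of all 12 libraries and 1 (FGF5) with the replicate block. FGF5 reached the count limit in this experiment only through the CTRL medium libraries. With a mean count of at least 100, 4 members differed between the experiments. By coding length, TGFA was 14.0 times the next member with DMSO and 22.8 times in CTRL medium. The causes were not tested. Without 1 library, upregulated and downregulated genes ranged from 2397 to 2574 and from 2568 to 2726 with MAPKi and from 208 to 573 and from 61 to 414 after Gln depletion. Members ranged from 0 to 1 upregulated with MAPKi, and from 2 to 3 upregulated and 2 to 4 higher after Gln depletion, and from 6 to 7 that differed between the experiments. The signs that turned were those of values near 0, and without 1 library these ranged from -0.21 to 0.01 for HBEGF, from -0.02 to 0.32 for VEGFC and from -0.05 to 0.08 for PDGFC with MAPKi, from -0.35 to 0.03 for HBEGF after Gln depletion, and from -0.11 to 0.30 for its difference between the experiments. PDGFC with MAPKi was 0.00 with DESeq2's size factors, DESeq2, protein-coding genes and the replicate block, 0.01 in the fit of all 12 libraries and without DMSO replicate 3, 0.05 without MAPKi replicate 2, and 0.08 without DMSO replicate 1. Without DMSO replicate 1, HBEGF was 0.01 and VEGFC -0.02. HBEGF after Gln depletion was 0.03 without Gln-depleted replicate 3, and its difference between the experiments was -0.02 without MAPKi replicate 1, -0.11 without Gln-depleted replicate 3 and -0.03 without CTRL medium replicate 1. In the MAPKi experiment same-numbered libraries did not deviate together (correlations of 0.0235, 0.0495 and 0.0199), and the replicate block gave 2655 upregulated and 2840 downregulated genes. The block changed no call of a member other than those given in the report.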
